A study of Mus musculus with 10 samples.

Results

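The genes described here are 44 genes that drive, hold back or carry out the cell division cycle, read by the phase in which they act. A gene was taken from the probes whose annotation names that gene alone, and where it had more than 1 such probe, the probe with the highest mean log2 level over all arrays stood for it. Of the 44 genes, 41 had a probe, against 18069 genes with a probe on the whole array, and all 41 passed the background filter and were tested. Cdkn1b, Ccnb1 and Tyms were not analysed here. The study hybridized RNA to 1-colour CodeLink mouse arrays, 2 for each of 5 groups. Dox(+) EBs were embryoid bodies of mouse Ainv18 ES cells that carry a doxycycline-inducible construct with Pdx1 and Ngn3 in 1 transcript, grown with 1 µg/ml doxycycline (Dox) from day 4 and collected on day 13, and Dox(−) EBs were the same line at day 13 without Dox. βTC6 cells are a mouse insulinoma line, islets were whole isolated islets of a stage that the labels do not give, and E15.5 pancreas was the whole embryonic organ. All EBs of both groups had also passed through activin A, BMP4 and bFGF, and they are mixed cultures. A description field of the EB samples names activated Notch4 where the source field names Pdx1 and Ngn3.

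Cells enter the cycle when D-type cyclins with Cdk4 or Cdk6, and then E-type cyclins with Cdk2, phosphorylate the retinoblastoma protein and free E2F factors. E2F factors switch on the genes for loading the replicative helicase and for DNA synthesis, and a later wave, read from promoters with a CHR element and CCAAT boxes, supplies the kinases, spindle proteins and checkpoint proteins of G2 and mitosis. Inhibitors of the Cip/Kip and Ink4 families hold the G1 kinases back. In mice, the embryonic pancreas grows by rapid division, adult β cells divide rarely, and progenitors that switch on Ngn3 leave the cycle as they become endocrine. βTC lines come from tumours of mice that express SV40 large T antigen in β cells, a protein that binds and disables the retinoblastoma protein.

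The level used throughout is the CodeLink intensity after subtraction of the local background, divided by the median of its array, so a level of 1 is the array median, and levels under 0.27 were set to 0.27. On each array, 66.0% to 74.3% of 34967 probes lay above background. The shares were 73.7% and 74.3% on the Dox(+) arrays, against 67.2% and 68.1% on the Dox(−) arrays. The part of this gap in the differences with Dox was not tested. No cell cycle probe was saturated. A difference was called at a Benjamini-Hochberg adjusted p under 0.05 in a limma fit over 28259 probes and all 10 arrays, and every adjusted p below comes from that fit. The labels name biological replicates without saying that cultures or dissections were separate, so p-values measure the spread between these samples. The slide numbers fall into 3 ranges, the EBs in one, E15.5 pancreas in another, and βTC6 cells with islets in the third. Across those ranges slide range and tissue cannot be told apart, whereas Dox(+) against Dox(−) EBs and βTC6 cells against islets each lie within a range. In these bulk samples fewer cells of a type and less RNA per cell cannot be told apart. The probes named for the induced genes gave no check of the induction. Pdx1 was not above background on either Dox(+) array, Neurog3 (Ngn3) lay at 0.447 and 0.557 in Dox(+) EBs, against 0.458 and 0.520 in Dox(−) EBs, and whether these probes lie in the construct is not given in the sources used here. The summed level of 6 endocrine cell markers did separate the EB groups, at 314 and 288 in Dox(+) EBs, against 6.82 and 6.59 in Dox(−) EBs.

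Promoter sequences are shown for 2 of the gene groups read below, mitosis and licensing. The RefSeq windows (GRCm38.p6) run from 250 bases before to 50 bases after the start of a gene, and 36 of the 44 genes had a window, with none for Ccnd1, Ccnd2, Ccne2, Rb1, Mcm4, Ccna2, Foxm1 and Aurkb. The letters were searched on both strands. A CHR was read where the window held TTTGAA, or with a central CG instead, TTCGAA. The CCAAT box was read by its own 5 letters. An E2F site was read from 4 words, the first of which is TTCCCGC. Another is TTCGCGC. Of those that begin with TTG, the word with C in the next place is TTGCCGC, and the last of the words is TTGGCGC. The words of an E2F site can overlap each other, and the last of them read on the other strand can overlap a CCAAT box. The 4 mitotic genes that hold a CHR and a CCAAT box in this window and fell most with Dox are written 5′ to 3′ along the gene's own strand, with CHR and CCAAT letters of either strand in capitals.
Cenpa promoter, chr5:30666636-30666935, plus strand: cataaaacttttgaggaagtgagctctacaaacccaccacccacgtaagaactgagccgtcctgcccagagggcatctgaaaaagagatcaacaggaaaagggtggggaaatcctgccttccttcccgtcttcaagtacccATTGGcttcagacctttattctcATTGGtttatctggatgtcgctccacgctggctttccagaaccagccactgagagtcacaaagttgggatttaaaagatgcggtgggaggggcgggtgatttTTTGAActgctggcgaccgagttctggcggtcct
Cdc20 promoter, chr4:118437294-118437593, minus strand: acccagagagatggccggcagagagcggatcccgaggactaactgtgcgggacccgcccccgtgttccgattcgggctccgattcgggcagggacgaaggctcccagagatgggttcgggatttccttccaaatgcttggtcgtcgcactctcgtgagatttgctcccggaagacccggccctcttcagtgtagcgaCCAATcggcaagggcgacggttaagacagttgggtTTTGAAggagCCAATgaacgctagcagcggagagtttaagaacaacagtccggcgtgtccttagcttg
Aurka promoter, chr2:172370521-172370820, minus strand: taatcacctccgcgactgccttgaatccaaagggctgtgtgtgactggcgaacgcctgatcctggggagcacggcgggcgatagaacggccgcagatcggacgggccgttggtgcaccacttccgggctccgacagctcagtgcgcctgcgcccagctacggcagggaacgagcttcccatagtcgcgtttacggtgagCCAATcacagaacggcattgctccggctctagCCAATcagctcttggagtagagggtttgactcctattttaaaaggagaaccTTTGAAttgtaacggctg
Cdk1 promoter, chr10:69352863-69353162, minus strand: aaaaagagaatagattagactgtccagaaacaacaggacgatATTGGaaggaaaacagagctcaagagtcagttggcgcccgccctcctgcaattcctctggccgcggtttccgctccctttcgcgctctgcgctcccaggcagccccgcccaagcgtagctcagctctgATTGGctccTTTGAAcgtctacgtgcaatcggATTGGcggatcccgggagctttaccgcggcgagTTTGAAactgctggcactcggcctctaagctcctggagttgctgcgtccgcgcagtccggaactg
The Cenpa window has a CHR at base 17 after the start and CCAAT boxes on the other strand that begin at −109 and −86. In Cdc20 a CHR at −18 stands between CCAAT boxes at −53 and −8. Aurka has its CHR at 33 and CCAAT boxes at −51 and −19. Cdk1 holds a CHR at −71 and another at −15, with CCAAT boxes on the other strand at −208, −80 and −48. In all 4 windows a CCAAT box thus lies upstream of a CHR, close to the start.

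The 3 licensing genes with an E2F site that fell most with Dox are given in the same way, here with the E2F letters of either strand in capitals.
Cdt1 promoter, chr8:122567765-122568064, plus strand: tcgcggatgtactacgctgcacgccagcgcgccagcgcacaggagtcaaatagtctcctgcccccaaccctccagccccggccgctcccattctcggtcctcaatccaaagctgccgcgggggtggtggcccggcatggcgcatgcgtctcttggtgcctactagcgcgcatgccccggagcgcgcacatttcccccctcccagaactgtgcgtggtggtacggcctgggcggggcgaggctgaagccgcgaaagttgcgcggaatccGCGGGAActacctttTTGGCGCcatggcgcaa
Mcm3 promoter, chr1:20820263-20820562, minus strand: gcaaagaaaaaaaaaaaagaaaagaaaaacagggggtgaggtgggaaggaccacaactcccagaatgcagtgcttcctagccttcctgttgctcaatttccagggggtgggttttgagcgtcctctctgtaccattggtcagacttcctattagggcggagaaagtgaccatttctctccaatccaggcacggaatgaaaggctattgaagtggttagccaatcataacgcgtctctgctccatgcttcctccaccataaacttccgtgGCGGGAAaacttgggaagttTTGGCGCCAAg
Mcm5 promoter, chr8:75109259-75109558, plus strand: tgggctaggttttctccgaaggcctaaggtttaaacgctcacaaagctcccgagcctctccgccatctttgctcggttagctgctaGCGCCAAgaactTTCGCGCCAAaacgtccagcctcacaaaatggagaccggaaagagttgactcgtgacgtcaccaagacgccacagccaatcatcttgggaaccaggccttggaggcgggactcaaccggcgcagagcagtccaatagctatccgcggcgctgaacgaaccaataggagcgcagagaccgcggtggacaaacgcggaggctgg
In Cdt1 the marked words begin at 19 and 34, and in Mcm3 at 20, 40 and 43, downstream of the start. In Mcm5 they begin at −164, −152 and −149. In Mcm3 and Mcm5 a pair of the words overlaps.

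Of the 16 genes of G2 and mitosis with a window, 12 (75.0%) held both a CHR and a CCAAT box, against 2328 of all 27025 genes with a window (8.61%). The CCAAT box alone was in 14 of the 16 (87.5%), against 41.06% of all genes, and the CHR alone count was the same 12, against 21.66% of all genes. An E2F site was in 3 of these 16 genes (18.75%). Of the 10 licensing genes with a window, 7 (70.0%) held an E2F site, against 10.86% of all genes, 7 held a CCAAT box, and 2 (20.0%), Mcm2 and Mcm7, held a CHR. No G1 cyclin, kinase or brake with a window held a CHR. Among the mitotic genes, Birc5 and Mad2l1 had none of the motifs in this window, Nek2 and Ccnb1 had a CCAAT box without a CHR. These are matches of letters and are given as a description without a test. The 27025 genes had 32851 windows, and a gene with several windows was counted where any of them held the motif.

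**Figure D1:**
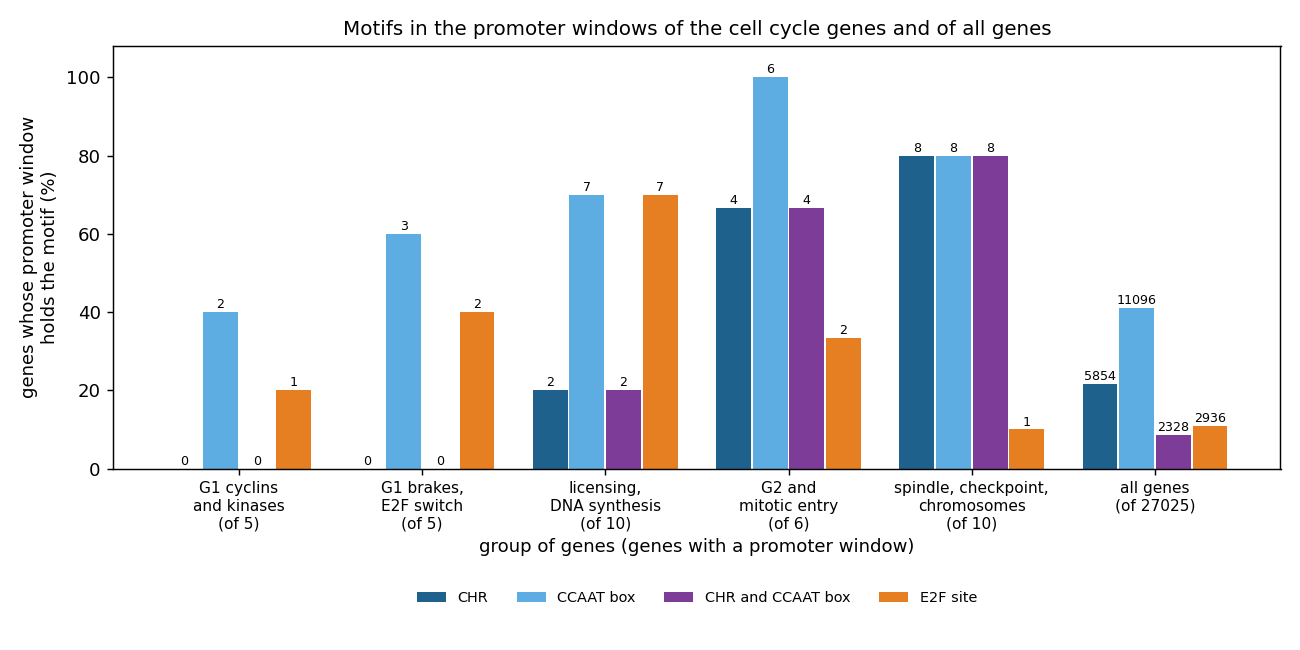
Share of genes in percent (vertical axis, from 0) with any promoter window that holds a CHR, a CCAAT box, both, or an E2F site, for each phase group and for all 27025 genes with a window, with the number of genes above each bar. CHR with CCAAT box stands at 4 of 6 and 8 of 10 in the mitotic groups, and the E2F site at 7 of 10 in the licensing group.

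Across the 5 groups, the cell cycle genes were high in βTC6 cells and low in islets. βTC6 cells had the highest mean log2 level of 31 of the 41 genes and E15.5 pancreas of 6. Islets had the lowest of 35 genes and E15.5 pancreas of 4. The same counts over all probes were not made. Over all probes the median difference of βTC6 cells was 0.21 log2 against E15.5 pancreas and 0.12 against islets. All 10 licensing genes and all 8 genes of mitotic entry had their lowest level in islets and, as scaled here, their highest in βTC6 cells. The order of βTC6 cells and E15.5 pancreas turned after quantile normalization for Cdt1, Mcm3, Mcm4, Mcm6 and Ccna2. Relative to each gene's own mean over the arrays, the median gene of mitotic entry lay at −0.04 and −0.21 log2 in Dox(+) EBs, against 0.54 and 0.56 in Dox(−) EBs. It lay at 2.00 and 2.06 in βTC6 cells, at −3.31 and −3.57 in the islets and, in E15.5 pancreas, at 0.68 and 0.71. The arrays of each group lay next to each other for this median, and both EB groups stood between islets and E15.5 pancreas. The G1 cyclins and kinases spanned less, with medians of −1.23 and −1.37 in islets and between −0.07 and 0.45 on every other array. The G1 brakes, a group that also holds the activator E2f1, had their lowest medians in E15.5 pancreas, −1.44 and −1.50, and their highest in βTC6 cells, 1.57 and 1.50.

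**Figure D2:**
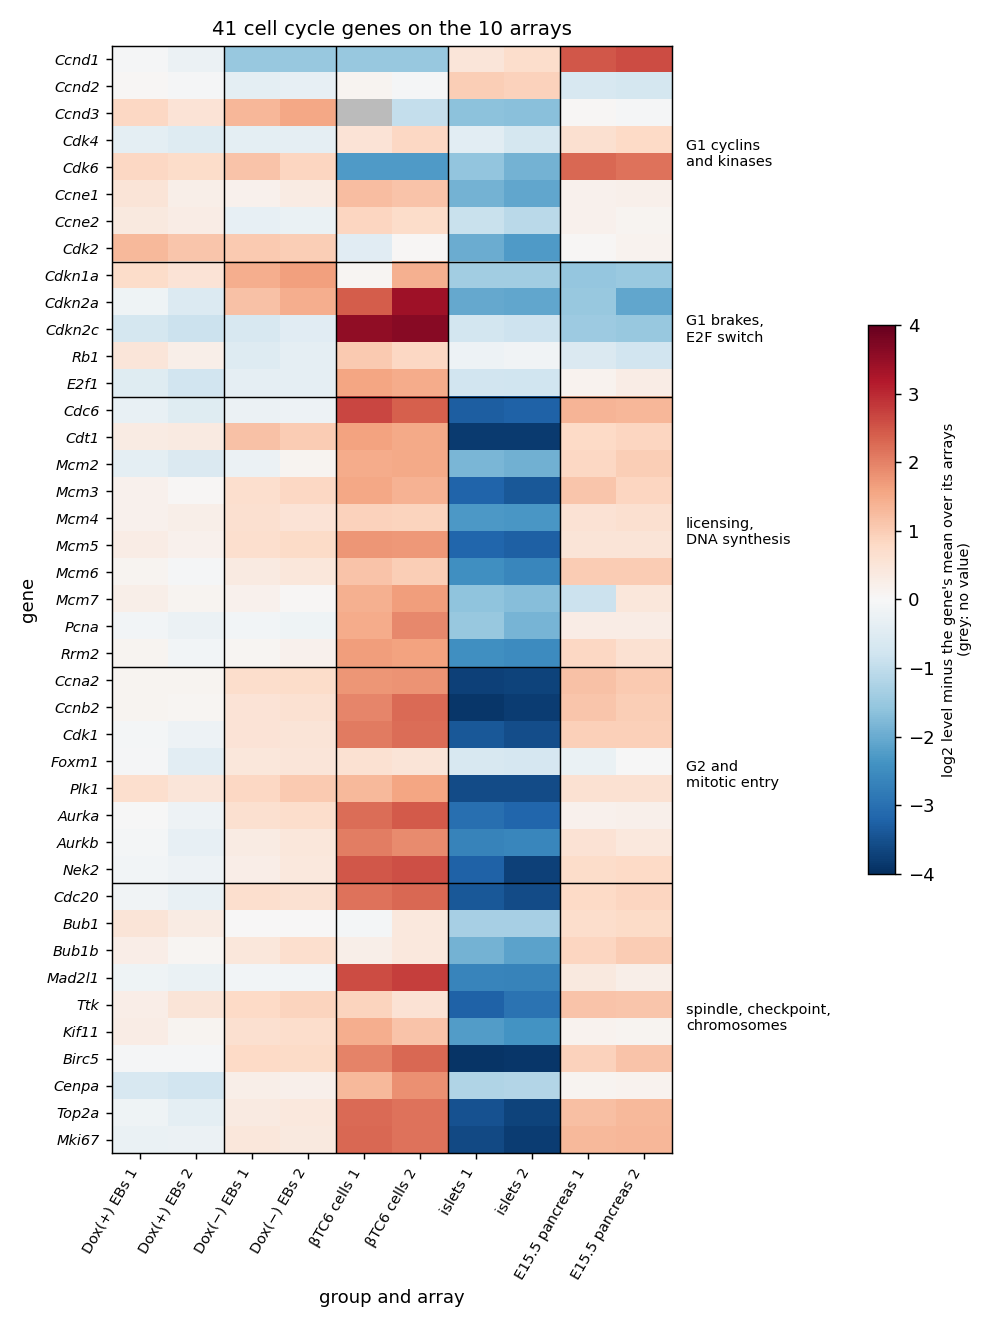
Log2 level of each of the 41 genes (rows, by phase) on each of the 10 arrays (columns, 2 per group), minus the gene's mean over its arrays. Red is above and blue below that mean, and grey marks the Ccnd3 spot without a value in βTC6 replicate 1. The licensing and mitotic rows are darkest blue in islets and darkest red in βTC6 cells, and the rows for Ccnd1, Ccnd2 and Cdk6 break the pattern.

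**Figure D3:**
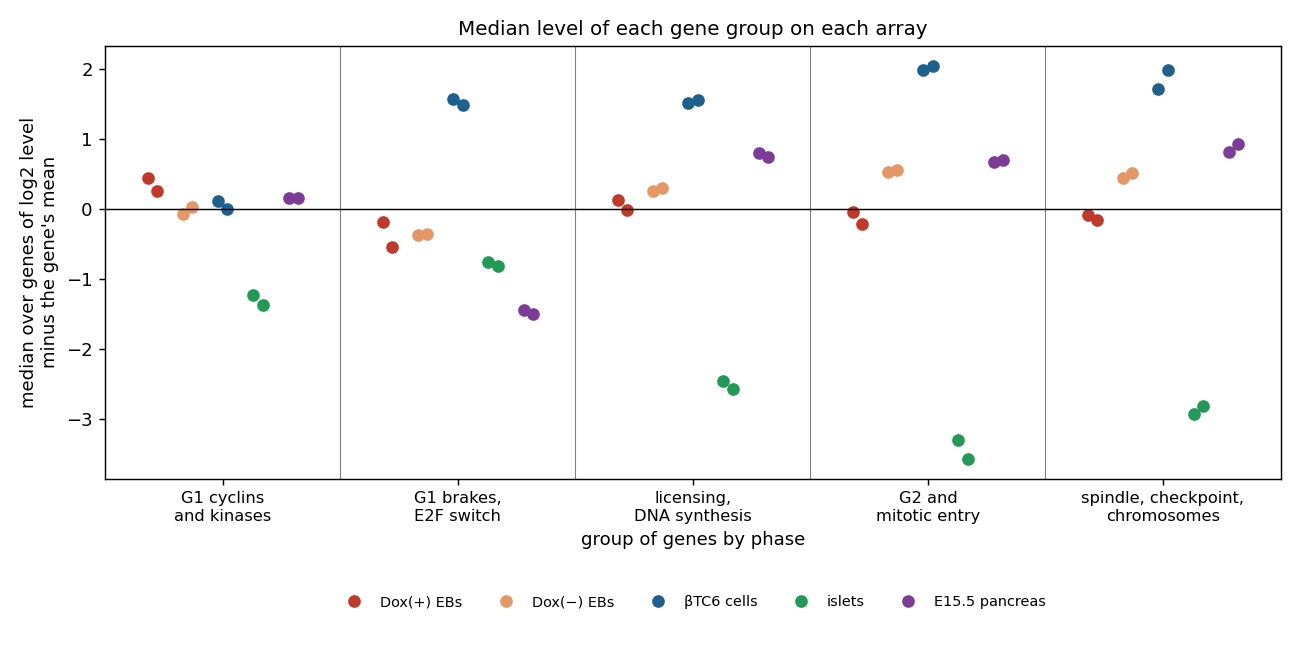
Median over the genes of each phase group (horizontal axis) of the log2 level minus the gene's own mean (vertical axis), 1 point per array, coloured by group of samples. Islets lie lowest in every phase group except the G1 brakes, where E15.5 pancreas lies at −1.44 and −1.50.

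With Dox, the genes of DNA licensing and mitosis fell by modest amounts, and the G1 genes were split. Of the 41 genes, 25 (61.0%) were lower and 4 (9.76%) higher in Dox(+) than in Dox(−) EBs, and 12 were not called. Over all probes tested, 22.5% were lower and 20.7% higher. The median difference of the 41 genes was −0.42 log2, against −0.03 over all probes. All 8 genes of mitotic entry fell (median −0.59), as did 8 of 10 spindle, checkpoint and chromosome genes (median −0.56) and 6 of 10 licensing genes (median −0.38). Whether the phases differ from each other was not tested. How many of all probes have EB arrays that do not overlap was not counted. Where such separation is given below, it describes single genes, mostly named for their large differences, and adds nothing to their calls. Among the G1 cyclins and kinases 3 rose, 1 fell and 4 were not called. Only Ccnd1 among the genes that rose and Cdkn2a among those that fell passed a 2-fold difference. Of the 25 falls, 17 were called again whichever of the 10 arrays was left out, and 8 were lost without at least 1 array, those of Bub1b, Cdkn1a, Kif11, Mcm2, Mcm6, Nek2, Plk1 and Ttk. All 4 rises were called each time.

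**Figure D4:**
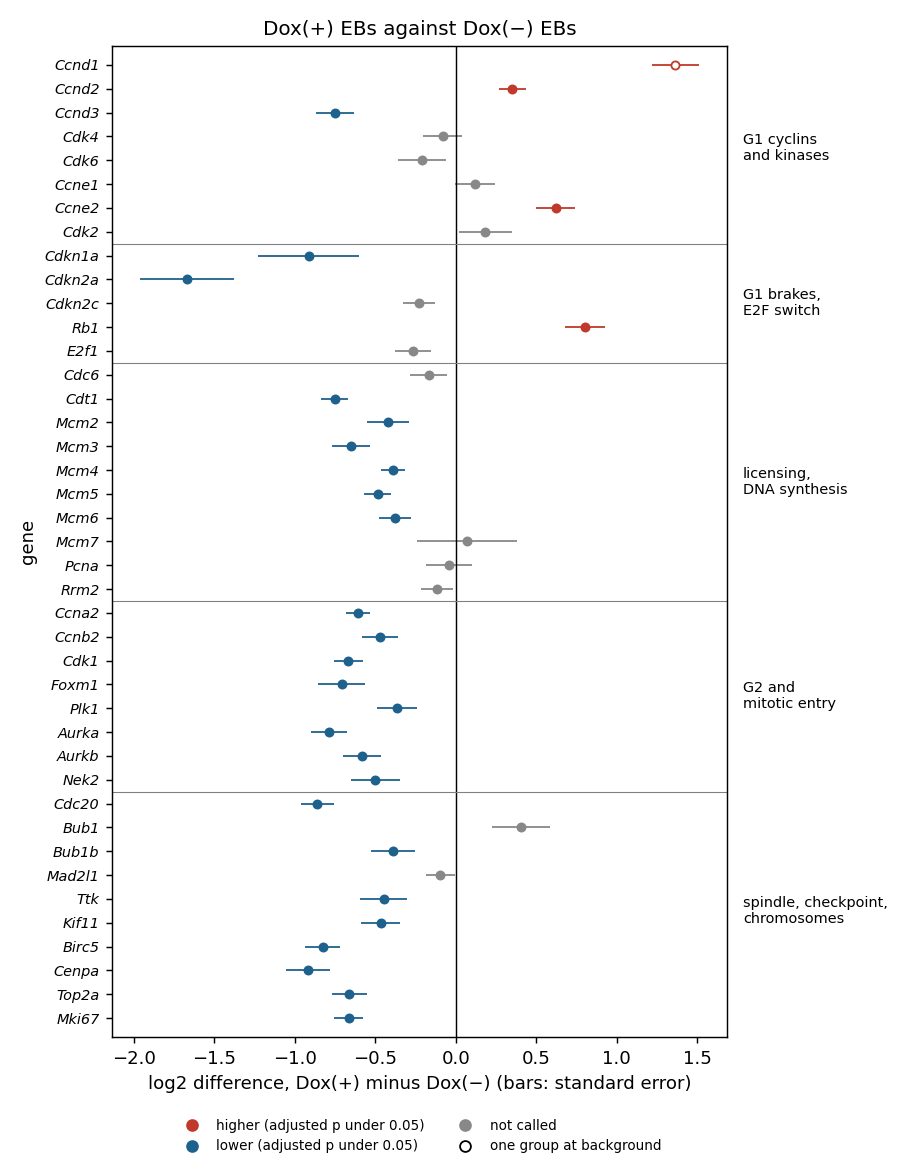
Log2 difference between Dox(+) and Dox(−) EBs for the 41 genes (rows, by phase), with standard errors from the limma fit (2 arrays per group). The mitotic entry genes all lie left of 0, between −0.79 and −0.36, and the open symbol marks Ccnd1, which was at background in Dox(−) EBs.

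The D-type cyclins, the regulatory partners of Cdk4 and Cdk6, went separate ways. Ccnd1 (cyclin D1) lay at 0.744 and 0.651 in Dox(+) EBs, against 0.27 on both Dox(−) arrays, where it was at background. It was also at background on both βTC6 arrays, at 1.08 and 1.24 in the islets and, in E15.5 pancreas, at 4.25 and 4.72. The Dox groups did not overlap, and cyclin D1 was at least 2.54-fold higher with Dox (log2 difference 1.37 ± 0.15 SE, adjusted p = 3.02e-05), although both Dox(+) values lay below the array median. Ccnd2 (cyclin D2), the D-type cyclin on which mouse β cells depend for their growth after birth, read 59.9 and 55.7 in Dox(+) EBs, against 44.5 and 46.1 in Dox(−) EBs. Its levels were 62.9 and 56.5 in βTC6 cells, 115 and 110.3 in the islets and, in E15.5 pancreas, 37.2 and 35.8. Its rise with Dox was small (0.35 ± 0.08 SE, adjusted p = 0.00624), and islets had its highest level. Ccnd3 (cyclin D3) read 17.1 and 13.9 in Dox(+) EBs, against 24.0 and 28.0 in Dox(−) EBs. It read 4.97 on the only βTC6 array with a value, 3.07 and 3.04 in the islets and, in E15.5 pancreas, 9.91 and 9.34. Cyclin D3 fell by 0.75 ± 0.12 SE (adjusted p = 0.000788) and was highest in the EB groups.

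None of the G1 kinases was called between the EB groups by the probe chosen for it. Cdk6, the second partner of the D-type cyclins, read 2.33 and 2.20 in Dox(+) EBs, against 2.90 and 2.36 in Dox(−) EBs (adjusted p = 0.301). A weaker Cdk6 probe, at 0.306 and 0.344 in Dox(+) EBs, against 0.629 and 0.646 in Dox(−) EBs, was called lower (−0.98, adjusted p = 0.00017). By the chosen probe Cdk6 was at background in βTC6 cells, at 0.435 and 0.351 in the islets and, in E15.5 pancreas, at 6.44 and 5.93, so that it followed cyclin D1 in being high in the embryonic organ and at background in βTC6 cells. By the second probe, at 1.365 and 1.416 in E15.5 pancreas, Cdk6 was instead higher in Dox(+) EBs than in that organ (0.46, adjusted p = 0.0412). Cdk2, which acts with the E-type cyclins, read 7.36 and 6.41 in Dox(+) EBs, against 6.18 and 5.91 in Dox(−) EBs (adjusted p = 0.415). It read 2.17 and 3.03 in βTC6 cells, 0.754 and 0.615 in the islets and, in E15.5 pancreas, 3.04 and 3.25, so both EB groups stood above the rest. Cdk4, a kinase that mice need for the growth of their β cells, read 43.0 and 39.4 in Dox(+) EBs, against 43.3 and 43.9 in Dox(−) EBs (adjusted p = 0.652), with 42.8 and 34.8 in islets. Among the E-type cyclins, which bring Cdk2 to the G1/S transition, Ccne2 rose to 2.42 and 2.26 in Dox(+) EBs, against 1.49 and 1.56 in Dox(−) EBs (0.62 ± 0.12 SE, adjusted p = 0.00192). Ccne2 read 3.36 and 3.06 in βTC6 cells, 1.01 and 0.873 in the islets and, in E15.5 pancreas, 2.09 and 1.98. Ccne1 overlapped between the EB groups, with 6.57 and 5.37 in Dox(+) EBs, against 5.22 and 5.74 in Dox(−) EBs (adjusted p = 0.486). Its other levels were 10.7 and 10.0 in βTC6 cells, 1.24 and 1.08 in the islets and, in E15.5 pancreas, 5.15 and 5.28. The E-type cyclins thus had their highest levels in βTC6 cells and their lowest in islets.

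The brakes among the 41 genes were lower or not called with Dox, apart from Rb1. Cdkn1a (p21), a Cip/Kip inhibitor and a target of p53, read 24.5 and 21.2 in Dox(+) EBs, against 40.3 and 45.8 in Dox(−) EBs. It read 15.4 and 38.9 in βTC6 cells, 5.56 and 5.55 in the islets and, in E15.5 pancreas, 5.02 and 5.20. The EB groups did not overlap, and p21 fell by 0.91 ± 0.31 SE (adjusted p = 0.0364). That call was lost when any single EB, islet or pancreas array was left out, with differences between −1.02 and −0.81 log2. The fit holds 1 spread per gene for all 5 groups, so this SE also takes in the gap between the βTC6 arrays. Cdkn2a, the locus of p16Ink4a and p19Arf, which this probe does not tell apart, read 1.01 and 0.781 in Dox(+) EBs, against 2.54 and 3.14 in Dox(−) EBs. It reached 6.17 and 12.0 in βTC6 cells, was at background in islets, and read 0.399 and 0.27 in E15.5 pancreas, above background on 1 of its arrays. Its fall with Dox was 3.18-fold (−1.67 ± 0.29 SE, adjusted p = 0.000962), the largest fall among the 41 genes. Cdkn2c (p18Ink4c), another Ink4 inhibitor, read 9.92 and 8.91 in Dox(+) EBs, against 10.3 and 11.8 in Dox(−) EBs (adjusted p = 0.0839). It read 188 and 201 in βTC6 cells, 9.61 and 9.16 in the islets and, in E15.5 pancreas, 5.93 and 5.65. The βTC6 arrays stood about an order of magnitude above every other array for this inhibitor.

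Rb1, the retinoblastoma protein that E2F factors bind, was the only member of its group to rise. It read 8.65 and 7.29 in Dox(+) EBs, against 4.31 and 4.82 in Dox(−) EBs. Its other levels were 12.9 and 11.1 in βTC6 cells, 5.36 and 5.65 in the islets and, in E15.5 pancreas, 4.20 and 3.67. The EB groups did not overlap, and the rise was 1.74-fold (0.80 ± 0.12 SE, adjusted p = 0.000445). E2f1, the activating E2F of the G1/S transition, read 8.09 and 6.54 in Dox(+) EBs, against 8.72 and 8.77 in Dox(−) EBs (adjusted p = 0.0771). It read 33.3 and 31.7 in βTC6 cells, 6.66 and 6.46 in the islets and, in E15.5 pancreas, 12.4 and 13.9. Its EB levels thus lay near those of islets.

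**Figure D5:**
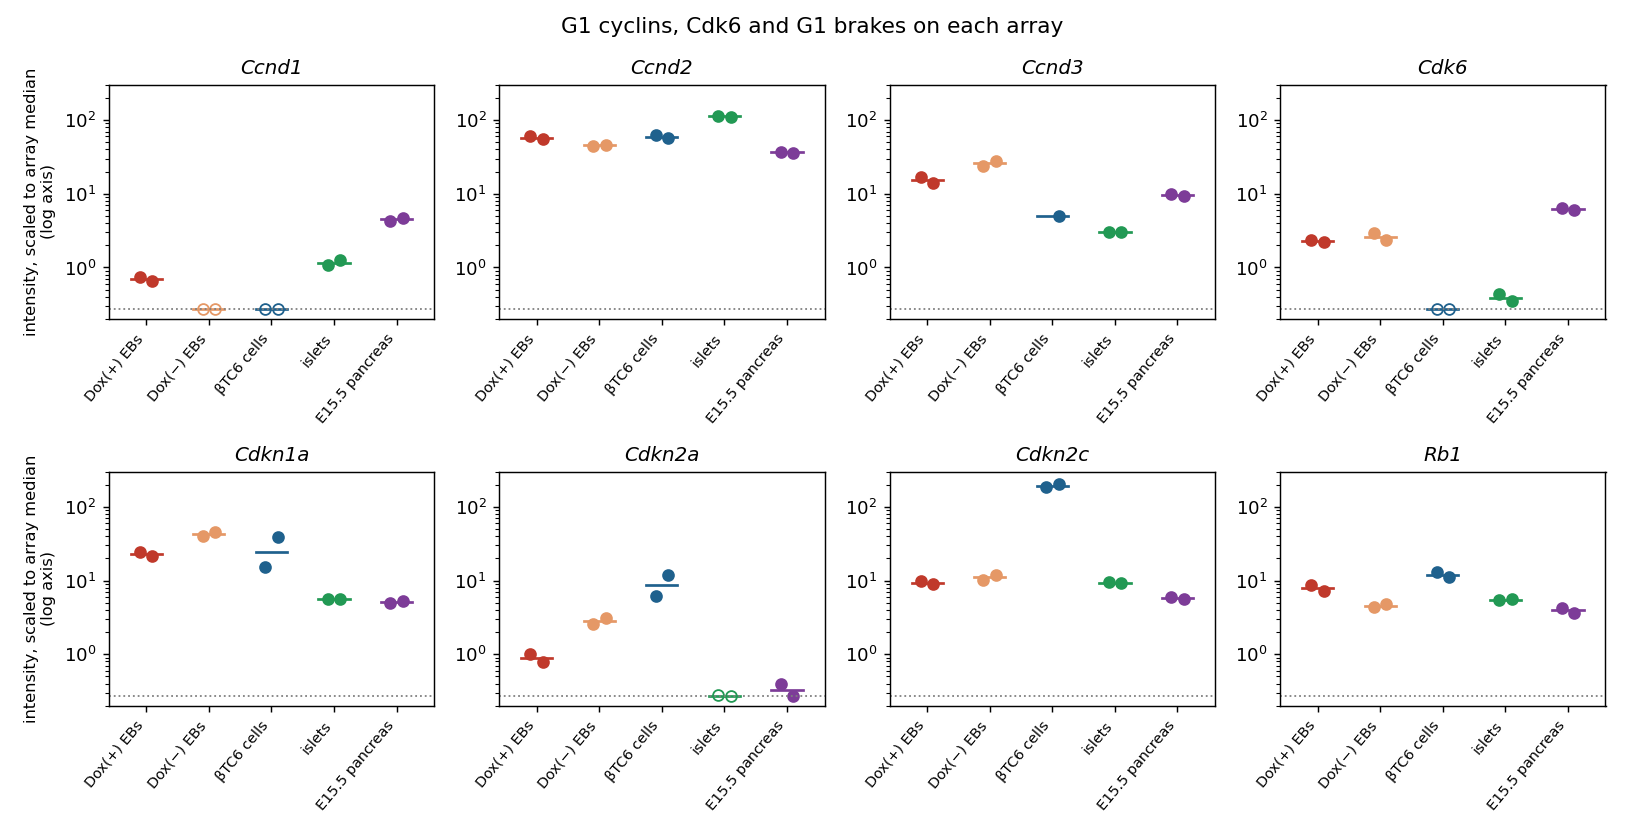
Level on each array (points, log axis, intensity scaled to the array median) of 8 G1 genes in the 5 groups, with the mean of the log2 values as a bar and the floor of 0.27 as a dotted line. Open points mark groups in which neither array was above background. Ccnd1 and Cdk6 are at the floor in βTC6 cells, where Cdkn2c reads 188 and 201, and Ccnd2 peaks in islets at 115 and 110.3.

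Licensing loads the Mcm helicase onto origins of replication, and its genes fell by up to 1.69-fold. Cdt1, which with Cdc6 brings the helicase to the origin, read 31.4 and 32.2 in Dox(+) EBs, against 56.2 and 51.2 in Dox(−) EBs (−0.75 ± 0.08 SE, adjusted p = 4e-05). It read 76.6 and 71.4 in βTC6 cells, 1.78 on both islet arrays, and 43.3 and 46.1 in E15.5 pancreas. Both Dox(+) arrays were below both pancreas arrays, and both Dox(−) arrays above them. Mcm3, a subunit of the helicase, read 21.2 and 19.5 in Dox(+) EBs, against 30.3 and 33.7 in Dox(−) EBs (−0.65 ± 0.12 SE, adjusted p = 0.00114). It read 55.7 and 49.5 in βTC6 cells, 2.07 and 1.80 in the islets and, in E15.5 pancreas, 41.0 and 34.5. Mcm5, another subunit, read 20.0 and 18.1 in Dox(+) EBs, against 25.9 and 27.3 in Dox(−) EBs (−0.49 ± 0.09 SE, adjusted p = 0.000995), with 54.8 and 53.4 in βTC6 cells, 1.79 and 1.67 in the islets and, in E15.5 pancreas, 23.1 and 23.2. The Dox(+) arrays of Mcm3 and of Mcm5 lay below their Dox(−) arrays. Mcm2, Mcm4 and Mcm6 fell too, with log2 differences of −0.42, −0.39 and −0.38. Cdc6, Mcm7, the polymerase clamp gene Pcna and the ribonucleotide reductase gene Rrm2 were not called, with differences between −0.17 and 0.07. Cdc6 read 4.47 and 3.91 in Dox(+) EBs, against 4.67 and 4.72 in Dox(−) EBs, with 35.1 and 28.7 in βTC6 cells, 0.555 and 0.579 in the islets and, in E15.5 pancreas, 14.1 and 13.6. The Mcm7 estimate was imprecise (SE 0.31), and its E15.5 pancreas arrays read 3.90 and 9.68.

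The genes of mitotic entry fell together. Cdk1, the kinase that starts mitosis, read 37.0 and 34.0 in Dox(+) EBs, against 57.0 and 55.7 in Dox(−) EBs (−0.67 ± 0.09 SE, adjusted p = 0.000171). It read 165 and 183 in βTC6 cells, 3.75 and 3.33 in the islets and, in E15.5 pancreas, 75.4 and 75.7. No array of one group reached into the next. Aurka (Aurora A), the kinase of the spindle poles, read 5.96 and 5.23 in Dox(+) EBs, against 9.37 and 9.92 in Dox(−) EBs (−0.79 ± 0.11 SE, adjusted p = 0.000227). It read 28.3 and 32.9 in βTC6 cells, 0.746 and 0.673 in the islets and, in E15.5 pancreas, 6.77 and 6.99. Foxm1, a forkhead factor that activates mitotic genes through CHR promoters, read 1.73 and 1.34 in Dox(+) EBs, against 2.45 and 2.52 in Dox(−) EBs (−0.71 ± 0.15 SE, adjusted p = 0.00275). Its probe was low in every group, at 2.76 and 2.60 in βTC6 cells, 1.16 and 1.12 in the islets and, in E15.5 pancreas, 1.48 and 1.78. Ccnb2 (cyclin B2), a partner of Cdk1, read 26.4 and 25.9 in Dox(+) EBs, against 35.2 and 37.3 in Dox(−) EBs (−0.47 ± 0.11 SE, adjusted p = 0.00574), with 94.1 and 118 in βTC6 cells, 1.64 and 1.77 in the islets and, in E15.5 pancreas, 52.2 and 48.5. Nek2, a kinase that parts the centrosomes, read 3.33 and 3.10 in Dox(+) EBs, against 4.31 and 4.80 in Dox(−) EBs (−0.50 ± 0.15 SE, adjusted p = 0.023), with 20.1 and 21.7 in βTC6 cells, 0.385 and the floor in the islets and, in E15.5 pancreas, 6.03 and 6.32. The Dox(+) arrays of Foxm1, Ccnb2 and Nek2 lay below their Dox(−) arrays. Ccna2 (cyclin A2), Aurkb (Aurora B) and Plk1 (Polo-like kinase) fell as well, with log2 differences of −0.61, −0.58 and −0.36.

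Among the 41 genes, Cenpa, Cdc20 and Birc5 had the largest falls of the mitotic genes. Cenpa, the histone variant that marks the centromere, read 21.3 and 19.8 in Dox(+) EBs, against 39.3 and 38.2 in Dox(−) EBs (−0.92 ± 0.14 SE, adjusted p = 0.000359). It read 81.6 and 117 in βTC6 cells, 14.4 and 15.0 in the islets and, in E15.5 pancreas, 35.7 and 36.5. Its span between islets and the other groups was narrow beside those of Cdk1 or Mki67. Cdc20, the activator of the anaphase-promoting complex, read 11.3 and 10.1 in Dox(+) EBs, against 19.9 and 18.9 in Dox(−) EBs (−0.86 ± 0.10 SE, adjusted p = 7.43e-05). It read 55.1 and 60.9 in βTC6 cells, 1.19 and 1.03 in the islets and, in E15.5 pancreas, 21.4 and 22.3. Birc5 (survivin), a subunit of the chromosomal passenger complex, read 34.8 and 34.4 in Dox(+) EBs, against 62.2 and 60.5 in Dox(−) EBs (−0.83 ± 0.11 SE, adjusted p = 0.000132), with 142 and 174 in βTC6 cells, 2.38 and 2.40 in the islets and, in E15.5 pancreas, 68.5 and 79.5. The Dox(+) arrays of Cenpa, Cdc20 and Birc5, which are named for their falls, lay below those of Dox(−) EBs and of E15.5 pancreas. Mki67 (Ki-67), the usual marker of dividing cells, read 31.2 and 32.0 in Dox(+) EBs, against 51.0 and 49.1 in Dox(−) EBs (−0.67 ± 0.09 SE, adjusted p = 0.000137). It read 184 and 170.0 in βTC6 cells, 3.12 and 2.73 in the islets and, in E15.5 pancreas, 92.2 and 94.0. Top2a, the topoisomerase that untangles sister chromatids, read 13.9 and 12.0 in Dox(+) EBs, against 19.9 and 21.0 in Dox(−) EBs (−0.66 ± 0.11 SE, adjusted p = 0.000642), with 75.8 and 71.0 in βTC6 cells, 1.41 and 1.20 in the islets and, in E15.5 pancreas, 35.7 and 38.6. Of the checkpoint and motor genes, Bub1b, Ttk and Kif11 fell, with log2 differences of −0.39, −0.45 and −0.47, and Bub1 (0.41) and Mad2l1 (−0.10) were not called.

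Further genes of the same processes, outside the 44, were counted in the same way, against the 22.5% of all probes that were lower and 20.7% that were higher. Of 25 other mitotic genes tested, 17 (68.0%) fell, 8 were not called (median −0.55), and the highest difference was 0.01 log2. The central spindle gene Prc1, the cyclin Ccnf and the passenger complex gene Cdca8 had log2 differences of −0.91, −0.96 and −0.99 (adjusted p = 1.86e-05, 2.01e-05 and 2.88e-05). Of 21 other replication genes, 7 (33.3%) fell and 3 (14.3%) rose (median −0.22), shares nearer to those of all probes than the 6 of 10 (60.0%) of the licensing group. The origin recognition gene Orc1, the kinase subunit Dbf4 and the chromatin assembly factor Chaf1b had log2 differences of −1.10, −0.69 and −1.02 (adjusted p = 3.7e-05, 6.88e-05 and 0.000133), and Pola1, Prim1 and Rrm1 were the 3 that rose. Of 19 other brakes and E2F or DREAM factors, 11 (57.9%) fell and 4 (21.1%) rose (median −0.40). Wee1, which holds Cdk1 inactive, the p53 target Ccng1 and the Ink4 gene Cdkn2b had log2 differences of −1.29, −0.99 and −0.98 (adjusted p = 1.75e-05, 1.39e-05 and 0.000107). Cdkn1c, Rbl2, E2f2 and Mdm2 were the 4 that rose. Inhibitors were thus among the genes that fell and, with Cdkn1c, among those that rose.

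Markers of several cell types moved with Dox in the same cultures, where 22.5% of all probes were lower and 20.7% higher. The sum of 4 acinar markers was 16.5 and 21.2 in Dox(+) EBs, against 2.12 and 2.00 in Dox(−) EBs. All 5 acinar markers tested were called higher. The summed level of 9 mesenchyme markers was 318 and 330.4 in Dox(+) EBs, against 781 and 823 in Dox(−) EBs, with all 9 above background on every EB array. Of these 9, 6 were called lower and 1 higher. The sum of 4 hepatocyte markers was 57.4 and 47.7 in Dox(+) EBs, against 517 and 496 in Dox(−) EBs, and that of 3 blood cell markers was 2.00 and 1.70 in Dox(+) EBs, against 119.9 and 109.5 in Dox(−) EBs. Of 5 hepatocyte markers tested, 4 were called lower and 1 higher, and of the 3 blood cell markers 2 were lower. The list of neuron markers rose, with a sum over 5 genes of 136 and 125 in Dox(+) EBs, against 2.85 and 3.08 in Dox(−) EBs, where 1 of the 5 was above background. These genes do not mark neurons alone here. They summed to 196 and 224 in βTC6 cells and to 63.6 and 64.7 in islets. Endothelial markers summed to 56.4 and 52.7 in Dox(+) EBs and to 49.4 and 48.0 in Dox(−) EBs, and 4 pluripotent cell markers stayed between 1.33 and 1.79 on all EB arrays. Of the 6 endothelial markers, 2 were called higher, both by over 2-fold. Of 5 pluripotent cell markers tested, 2 were called higher and 1 lower. The part of the cells that express these lists in the differences of the cell cycle genes was not tested.

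βTC6 cells differed from islets in every one of the 41 genes, and nearly always upward. In βTC6 cells 38 genes (92.7%) were higher and 3 (7.32%), Ccnd1, Ccnd2 and Cdk6, were lower, against 39.1% of all probes higher and 27.0% lower. The median difference was 3.61 log2, against 0.12 over all probes. It was largest in mitotic entry (5.47), followed by spindle, checkpoint and chromosome genes (4.58), licensing (3.87), the group of the brakes and E2f1 (2.31) and the G1 cyclins and kinases (0.97), an order that was not tested. The 2.31 is the difference of the activator E2f1 itself. The largest folds were those of Birc5 at 65.8, Nek2 at 64.8, Ccnb2 at 62.0 and Mki67 at 60.6 (SE 0.09 to 0.15 log2, adjusted p between 1.12e-11 and 2.62e-10). In mitosis, Top2a followed at 56.5-fold and Cdk1 at 49.1-fold, whereas Foxm1 stood only 2.35-fold higher. Plk1, at background on both islet arrays, was at least 32.5-fold higher, and Bub1, also at background in islets, at least 2.83-fold higher. In licensing, Cdc6 was 56.1-fold, Cdt1 41.5-fold and Mcm5 31.3-fold higher (adjusted p = 5.16e-11, 1.32e-11 and 2.23e-11).

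The brakes were also higher in βTC6 cells than in islets. Cdkn2a, at background in islets, was at least 31.5-fold higher (adjusted p = 1.02e-07), and Cdkn2c was 20.7-fold higher (4.37 ± 0.10 SE, adjusted p = 9.97e-11). The second Cdkn2c probe gave 95.8 and 93.1 in βTC6 cells and 4.92 and 4.48 in islets. Cdkn1a was 4.41-fold higher (adjusted p = 0.000118), although its βTC6 arrays, at 15.4 and 38.9, differed from each other by more than any other group's. E2f1 was 4.96-fold higher (adjusted p = 2.3e-08) and Rb1 2.18-fold higher (adjusted p = 1.48e-05). Of the G1 cyclins, Ccne1 was 8.96-fold higher (3.16 ± 0.12 SE, adjusted p = 4.76e-09) and Ccne2 3.42-fold higher (adjusted p = 3.27e-07). Cdk2 was 3.77-fold higher (1.91 ± 0.16 SE, adjusted p = 1.98e-06), Cdk4 2.35-fold and Ccnd3, on its single βTC6 value, 1.63-fold.

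The 3 genes that were lower in βTC6 cells than in islets all belong to the complex of D-type cyclins and kinases. Ccnd1 was at least 3.69-fold lower (adjusted p = 3.69e-07). Cdk6 was at least 1.24-fold lower (adjusted p = 0.00899), with islet levels of 0.435 and 0.351 near the floor, and its call was lost without islet replicate 1 (adjusted p = 0.077). Ccnd2 was 1.89-fold lower (−0.92 ± 0.08 SE, adjusted p = 3.09e-06). All 3 fell below the level of islets while Cdk4 and the E-type cyclins were above it.

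The lists outside the 44 were also mostly higher in βTC6 cells than in islets, beside 39.1% of all probes higher and 27.0% lower. All 21 other replication genes were higher (median 4.07), with Tk1, Pole and Dbf4 at 90.0-fold, 60.1-fold and 17.1-fold. Of 26 other mitotic genes, 25 were higher and 1, the kinase gene Melk, lower (median 4.14), with Ube2c, Nusap1 and Hmmr at 83.2-fold, 50.9-fold and 42.6-fold. Of 19 other brakes and E2F or DREAM factors, 12 were higher and 3, Rbl2, E2f2 and Mdm2, lower (median 0.98). The repressing E2F genes E2f8 and E2f7 were 106-fold and 55.0-fold higher, and Mybl2, the Myb of the mitotic activator complex, 27.7-fold. Islets carried acinar RNA, with 4 acinar markers summing to 1.56 and 1.83 in βTC6 cells and to 1239 and 1055 in islets. The 9 mesenchyme markers summed to 5.45 and 5.54 in βTC6 cells, where 3 were above background, and to 59.3 and 58.4 in islets. The 6 endocrine markers were above background on all 4 arrays, with sums of 717 and 705 in βTC6 cells and 1032 and 948 in islets. The part of the other cell types of the islet samples in these differences was not tested.

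Against E15.5 pancreas, βTC6 cells had 32 genes (78.0%) higher, 6 (14.6%) lower and 3 not called, with 41.8% of all probes higher and 23.8% lower. With quantile normalization, and with normexp before it, the counts were 23 higher and 9 lower. The median was 0.98 log2, against 0.21 over all probes. That shift of all probes was 0.05 after quantile normalization, which also moved the share of higher among all calls to 53.2%, against 63.7% as scaled by the authors' software (52.5% with normexp). The group of the brakes and E2f1 had the largest median difference, 2.26 log2. Among 19 other brakes and E2F or DREAM factors the median was 0.38 log2, with 10 (52.6%) higher and 4 (21.1%) lower. Cdkn2c was 33.6-fold higher (5.07 log2), Cdkn2a 26.2-fold, Cdkn1a 4.79-fold and Rb1 3.05-fold. In mitosis, Mad2l1, a spindle checkpoint protein, was 5.14-fold, Aurka 4.43-fold and Nek2 3.38-fold higher, and Mki67 1.90-fold. The second Aurka probe was called the other way (−0.82, adjusted p = 0.000561), with 1.70 on its only βTC6 array with a value, against 2.94 and 3.06 in E15.5 pancreas. Lower in βTC6 cells were Cdk6 (at least 19.7-fold), Ccnd1 (at least 14.3-fold), Ccnd3, and the spindle checkpoint kinases Bub1, Bub1b and Ttk, with log2 differences of −0.56, −0.60 and −0.39. Ccnd2, Cdt1, Mcm3, Mcm4, Mcm6 and Ccna2 were 0.05 to 0.73 log2 higher in βTC6 cells as scaled here, and lay between −0.57 and −0.03 log2 after quantile normalization. For these 6 genes the direction between βTC6 cells and E15.5 pancreas is therefore not settled. After it, Mcm4 and Mcm6 were called lower in βTC6 cells (adjusted p = 0.00123 and 0.00026), and the other 4 were not called.

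Islets had nearly all cell cycle genes below E15.5 pancreas. Of the 41 genes, 36 (87.8%) were lower, 3 (7.32%) higher and 2 not called, against 32.5% of all probes lower and 32.4% higher. The median was −2.94 log2, against 0.00 over all probes. Mki67 was 31.9-fold, Birc5 30.9-fold, Ccnb2 29.6-fold and Cdt1 25.1-fold lower in islets (adjusted p between 6.37e-11 and 1.41e-10). The 3 genes that were higher in islets were Ccnd2 (3.09-fold, adjusted p = 3.79e-08), Cdkn2c (1.62-fold, adjusted p = 8.9e-05) and Rb1 (1.40-fold, adjusted p = 0.00566). Cdkn1a and Cdkn2a were not called. Among 19 other brakes and E2F or DREAM factors, 3 (15.8%) were higher and 13 (68.4%) lower in islets. Islets thus combined the highest level of cyclin D2 with low levels of its partner Cdk6 and of the genes of S phase and mitosis, while Cdk4 at 42.8 and 34.8 in islets was 2.44-fold below its level of 89.2 and 99.0 in E15.5 pancreas. The 9 mesenchyme markers summed to 59.3 and 58.4 in the islets, against 530.0 and 529.8 in E15.5 pancreas, and 8 of them were lower. The sum of 6 endocrine markers was 1032 and 948 in the islets, against 67.3 and 68.6 in E15.5 pancreas, and that of 4 acinar markers was 1239 and 1055, against 515 and 514. The part of these cell types in the differences of the cell cycle genes was not tested.

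Dox(+) EBs stood well above islets, below βTC6 cells and mostly below E15.5 pancreas. These 3 comparisons and the one with Dox(−) EBs share the Dox(+) arrays, so the values are set side by side. Against βTC6 cells, 32 genes (78.0%) were lower and 4 (9.76%) higher, with 37.5% of all probes lower and 25.5% higher (medians −1.37 and −0.11 log2). Against islets, 36 genes (87.8%) were higher and 2 (4.88%) lower, with 36.4% of all probes higher and 31.6% lower (medians 2.49 and 0.05). Against E15.5 pancreas, 27 genes (65.9%) were lower and 7 (17.1%) higher, with 26.9% of all probes lower and 33.0% higher (medians −0.71 and 0.07). All 25 genes that fell with Dox were still higher in Dox(+) EBs than in islets. Mki67 in Dox(+) EBs was 5.60-fold lower than in βTC6 cells, 10.8-fold higher than in islets and 2.95-fold lower than in E15.5 pancreas.

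The genes called against the direction of most were G1 genes and brakes. Against βTC6 cells, Dox(+) EBs were higher in Ccnd1 (at least 2.21-fold), Ccnd3 (3.10-fold, on a single βTC6 value), Cdk6 (at least 7.20-fold) and Cdk2 (2.68-fold), while Ccnd2, Cdkn1a, Bub1, Bub1b and Ttk were not called. Lower than in islets were Ccnd1 (1.67-fold) and Ccnd2 (1.95-fold), and Cdk4, Cdkn2c and E2f1 were not called, with differences of 0.09, 0.00 and 0.15 log2. Higher than in E15.5 pancreas were the 4 brakes among the 41 genes, Cdkn1a (4.46-fold), Cdkn2a (2.71-fold), Rb1 (2.02-fold) and Cdkn2c (1.62-fold). So were Ccnd2, Ccnd3 and Cdk2, whereas E2f1 was lower (−0.85 log2). Among 19 other brakes and E2F or DREAM factors, 6 (31.6%) were higher and 7 (36.8%) lower (median −0.14). Over all probes, 33.0% were higher and 26.9% lower. Ccne1, Ccne2, Mcm7, Foxm1, Plk1, Bub1 and Kif11 were not called against E15.5 pancreas, and Mcm7 was called higher (1.03 log2, adjusted p = 0.000402) without E15.5 pancreas replicate 2. Within the EB state the inhibitors p21 and Cdkn2a were thus lower with Dox than without, and with Dox still above their level in the embryonic organ. Against βTC6 cells the direction of Ccnd2 depended on the scaling, at −0.04 log2 here (not called) and 0.90 after quantile normalization (adjusted p = 3.72e-06).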

How the data were processed

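What the authors deposited is 1 intensity per probe from each of 10 single-channel arrays. Their software, CodeLink Expression Analysis 4.1.0.29054, took off the local background and then scaled each array to its median over the 34967 discovery probes. Control spots (1260) were dropped here, spots masked or marked contaminated or irregular were treated as missing, and the rest were floored at 0.27 before log2. Neither the authors' removal of invalid probes nor their GeneSpring 7 step was repeated.

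In the platform annotation 21615 probes carry 1 symbol, 681 several and 12671 none, and no probe names Cdkn1b, Ccnb1 or Tyms alone. Group means were fitted in limma 3.58.1 (R 4.3.3, eBayes with trend and robust, 5 residual degrees of freedom, median prior 5.18). The fit held the 28259 probes that lay above background on all arrays of some group, p-values were adjusted over all of these by Benjamini-Hochberg, and the threshold was 0.05. "At least" stands before a fold whose lower group was at background on each array, with each array's lowest signal above background in its place. The small number of arrays limits the precision. The fit was tested on simulated data.

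Values on every array are given for the 3 genes of each phase with the largest called differences with Dox or between βTC6 cells and islets, for genes called against most of their phase, and for the brakes. Up to 3 genes of each other list with the smallest adjusted p are named. Further genes named beside their counts, such as Cdk4, Mcm7 and the few that rose in a list that fell, were picked once their values had been seen. The genes and lists were chosen with earlier results of these data known. A marker sum covers those genes of a list that have a value on every array.

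Settings varied were the normalization (quantile, and normexp with offset 50 before it), the floor (0.1 and 1), the background filter (none, or all arrays), the arrays fitted (only the 4 compared, or all but 1), eBayes without trend and robust weights, marked spots kept, a gene's second probe, a block for the replicate number, and a minimum of 2-fold. Python 3.11.15 (pandas 2.3.3, numpy 2.4.6, matplotlib 3.10.9) wrote the tables and drew the figures.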

Additional observations from a re-analysis of the deposited data

How the results depend on the processing

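Keeping contaminated and irregular spots changed none of the 287 calls (41 genes in 7 comparisons), and eBayes without trend and robust weights changed 3. A 2-fold minimum left 1 higher and 1 lower gene in Dox(+) against Dox(−) EBs, 0 lower in Dox(+) EBs against islets, 4 higher and 12 lower in Dox(+) EBs against E15.5 pancreas, 1 lower in βTC6 cells against islets, 19 higher and 2 lower in βTC6 cells against E15.5 pancreas, and 1 higher in islets against E15.5 pancreas. With the 33 genes above background on all arrays, 1 was higher in Dox(+) EBs against βTC6 cells, and 1 each was lower in Dox(+) EBs against islets, in βTC6 cells against islets and in βTC6 cells against E15.5 pancreas, where fewer genes were tested. A floor of 1 left 1 gene lower in each of the comparisons of Dox(+) EBs and of βTC6 cells with islets, and the second probe gave 5 in each. Between Dox(+) and Dox(−) EBs the second probe gave 22 lower and 3 higher genes. Only Ccnd3, Cdk6, Cdkn2c, Rb1, Cdc6, Aurka, Bub1, Kif11 and Top2a had another probe. All other genes kept their only probe in that setting, so it could not change their values.

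In Dox(+) against Dox(−) EBs, leaving out 1 array gave 17 to 25 lower and 4 to 5 higher genes, with 17 lower without Dox(−) replicate 2 and 18 without Dox(+) replicate 2, and the fit to the 4 EB arrays alone gave 18. The ranges were 32 to 33 lower and 4 to 5 higher in Dox(+) EBs against βTC6 cells, 2 lower and 34 to 37 higher against islets, and 24 to 27 lower and 7 to 8 higher against E15.5 pancreas. In βTC6 cells they were 37 to 38 higher and 2 to 3 lower against islets, and 31 to 32 higher and 4 to 6 lower against E15.5 pancreas. In islets against E15.5 pancreas they were 35 to 36 lower and 2 to 3 higher. Calls lost without some array were also those of Cenpa and Foxm1 (Dox(+) EBs against islets), Aurka, Mcm5 and Pcna (Dox(+) EBs against E15.5 pancreas), Mcm3, Bub1 and Ttk (βTC6 cells against E15.5 pancreas), and Rb1 and Foxm1 (islets against E15.5 pancreas). Without βTC6 replicate 2, Cdkn1a in Dox(+) EBs against βTC6 cells turned to 0.56 log2.

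Ccnd2 in Dox(+) EBs against βTC6 cells turned to 0.90 log2 with quantile normalization and 0.89 with normexp. In βTC6 cells against E15.5 pancreas the values with quantile normalization and with normexp were −0.0289 and −0.0286 for Ccnd2, −0.0536 and −0.0531 for Cdt1, −0.36 and −0.36 for Mcm4, −0.11 and −0.11 for Ccna2, −0.22 and −0.22 for Mcm3, and −0.57 and −0.56 for Mcm6. The second probe turned Ccnd3 to −1.22, Cdkn2c to −0.24, Rb1 to −0.30, Cdc6 to −0.81 and Top2a to −0.77 in Dox(+) EBs against islets, and Aurka to 0.75 against βTC6 cells. It turned Cdk6 to 0.46 and Kif11 to −0.65 in Dox(+) EBs against E15.5 pancreas. In βTC6 cells it turned Ccnd3 to −1.22, Cdc6 to −0.0918 and Top2a to −0.77 against islets, and Aurka to −0.82 and Bub1 to 0.14 against E15.5 pancreas. In islets against E15.5 pancreas it turned Ccnd3 to 1.22, Cdc6 to 0.81 and Top2a to 0.77. The second probes of Ccnd3, Top2a, Cdc6 and Rb1 read at most 0.73 on every array, near the floor. The cause of the other changes was not tested.

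Deviations of same-numbered arrays correlated between −0.07 and 0.07 over 26555 probes. These values show no strong common pattern, and they cannot settle whether the replicate numbers stand for a pairing. With the replicate number as a block, 3 of the 287 calls were lost, Bub1b with Dox (adjusted p = 0.0616), Aurka in Dox(+) EBs against E15.5 pancreas (adjusted p = 0.053) and Ttk in βTC6 cells against E15.5 pancreas (adjusted p = 0.0511), and the falls with Dox numbered 24. Genes near the floor, such as Ccnd1, Cdk6, Cdkn2a and Bub1, are limited by signal over background.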
